A study of Sus scrofa with 20 samples.

Results

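Insulin and glucagon act on fat and liver through a short chain of receptors and adaptors. The genes described here are INSR, GCGR, IRS1, IRS2, PIK3R1, AKT1, AKT2, TBC1D4 and TRIB3, which were chosen by name for their place in that chain. An Ensembl identifier was available for 8 of the 9 in the gene name table used, and these 8 were measured among the 31907 genes of the count table. AKT1 was not analysed here. RNA-seq was performed on bulk backfat, the subcutaneous fat of the back, and on liver of Nanchukmacdon boars, a Korean pig line, with 5 libraries per tissue and 10 in all. The labels give every sample as WT, aged 22 months and with the disease state Normal, while the study's methods give a higher average age. Libraries are named by tissue and by the boar number in the column name (65, 67, 69, 71 and 72), by which each boar gave 1 library of each tissue. No treatment, fasting state or insulin level is given for any group in the sources used here. Because tissue was sequenced in bulk, fewer cells of a type and less RNA per cell cannot be told apart.

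Insulin binds INSR, a receptor tyrosine kinase, which phosphorylates the docking proteins IRS1 and IRS2. These recruit PI3-kinase through its regulatory subunit, PIK3R1, and the lipid product of that enzyme leads to activation of the AKT kinases. In fat and muscle, AKT phosphorylates TBC1D4, a GTPase-activating protein that holds the glucose transporter GLUT4 inside the cell until it is phosphorylated, whereas in liver insulin restrains glucose output. Glucagon binds GCGR, a G protein-coupled receptor that raises cyclic AMP and promotes glucose output by the liver. TRIB3 is a pseudokinase known to bind AKT and to be induced by stress.

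The series concerns CpG dinucleotides, so the stretch before the annotated start of 5 of the genes is shown with each CG in capitals. GCGR and TBC1D4 are shown because they had the lowest and the highest fold change of backfat over liver, IRS1 and IRS2 because the docking proteins differed in opposite directions, and INSR because it was the only one of the 8 that held a motif searched for. Each sequence is the 250 bases before the RefSeq start in Sscrofa11.1, on the strand of the gene and written 5′ to 3′. The positions are chr12:1157235-1157484 for GCGR, chr11:47760929-47761178 for TBC1D4, chr15:128307322-128307571 for IRS1 and chr11:76654640-76654889 for IRS2, all on the minus strand, and chr2:71796959-71797208 on the plus strand for INSR.
GCGR: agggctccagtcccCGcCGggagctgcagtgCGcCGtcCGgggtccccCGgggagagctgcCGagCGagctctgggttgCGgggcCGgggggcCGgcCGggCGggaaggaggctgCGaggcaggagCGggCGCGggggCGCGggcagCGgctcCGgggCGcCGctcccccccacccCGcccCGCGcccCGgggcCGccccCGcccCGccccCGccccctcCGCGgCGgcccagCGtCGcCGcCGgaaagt
TBC1D4: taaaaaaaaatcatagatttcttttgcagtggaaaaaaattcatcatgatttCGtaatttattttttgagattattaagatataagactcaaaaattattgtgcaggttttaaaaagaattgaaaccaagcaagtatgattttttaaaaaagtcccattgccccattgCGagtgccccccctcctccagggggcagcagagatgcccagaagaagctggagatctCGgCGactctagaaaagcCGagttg
IRS1: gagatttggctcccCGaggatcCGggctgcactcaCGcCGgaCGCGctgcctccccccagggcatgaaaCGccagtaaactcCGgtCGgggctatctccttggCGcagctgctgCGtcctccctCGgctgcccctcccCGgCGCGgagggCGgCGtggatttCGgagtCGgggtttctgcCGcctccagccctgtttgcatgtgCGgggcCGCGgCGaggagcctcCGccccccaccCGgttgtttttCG
IRS2: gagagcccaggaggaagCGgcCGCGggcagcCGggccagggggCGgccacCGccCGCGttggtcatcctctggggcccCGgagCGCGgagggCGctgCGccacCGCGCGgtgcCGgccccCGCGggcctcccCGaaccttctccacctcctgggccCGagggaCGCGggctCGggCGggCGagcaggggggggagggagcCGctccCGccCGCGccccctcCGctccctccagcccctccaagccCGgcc
INSR: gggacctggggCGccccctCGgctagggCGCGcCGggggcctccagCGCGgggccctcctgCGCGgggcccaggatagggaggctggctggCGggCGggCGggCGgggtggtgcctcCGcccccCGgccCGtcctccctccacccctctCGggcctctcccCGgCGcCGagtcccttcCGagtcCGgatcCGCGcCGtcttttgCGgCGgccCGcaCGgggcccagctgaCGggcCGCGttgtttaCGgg

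The stretch of GCGR held 38 CG, and 95.9% of the 19544 promoters read in the same way held at most as many. That of TBC1D4 held 5 CG, a number reached or undercut by 29.9% of promoters, and the median was 12. IRS1 held 27 CG and IRS2 held 32, so both docking proteins were above the median though they differed in opposite directions. INSR held 33 CG, PIK3R1 32, TRIB3 13 and AKT2 5. The genes that were higher in liver held between 13 and 38 CG and those higher in backfat between 5 and 32, so the ranges overlapped. Of 4 motifs searched on both strands, the forkhead core TGTTTAC was found once in INSR, close to the start, and in 2.28% of all promoters. The cyclic AMP response element TGACGTCA (1.7% of promoters), the sterol element TCACNCCAC (0.803%) and the C/EBP-ATF element TGATGCAA (0.609%) were not found in any of the 8. A match is a description of letters only, and an annotated start may differ from the start used in these tissues. Methylation at these positions was not analysed here.

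Total counts lay between 43820042 and 61772737 per library, and 16275 genes were kept by the filter for low counts. The 6 adipocyte markers found summed to between 11050 and 17650 CPM (counts per 1e6 counts) of all counts in backfat and to between 9.62 and 11.3 in liver. The 8 hepatocyte markers summed to between 201.6 and 704.2 CPM in backfat, where at most 1 of them was at 0, and to between 19790 and 83880 in liver. The backfat sum rested mainly on 1 marker, APOA1. Scaled between libraries, APOA1 averaged 246.0 CPM in backfat, and the next highest marker, ALB, averaged 7.48. Endothelial markers summed to between 704.1 and 1453 CPM in backfat and between 90.96 and 146.3 in liver, fibroblast markers to between 30290 and 58650 and between 337.2 and 619.3, and macrophage markers to between 182.5 and 362.9 and between 571.6 and 984.3. The liver macrophage sum rested mainly on CD14, which averaged 754.7 CPM in liver and 29.7 in backfat when scaled between libraries. CD163 and MARCO also passed the edgeR test below as higher in liver, while CD68 and CSF1R did not pass (adjusted p = 0.110 and 0.403). The backfat fibroblast sum rested mainly on COL1A1 and COL1A2, though DCN, LUM and PDGFRA were also higher in backfat. The part of these markers in the tissue differences below was not tested. A pair of libraries stood apart. Liver 67 had the lowest hepatocyte sum of the liver libraries, 44.5% of its counts in the 13 mitochondrial genes against between 6.38% and 20.3% in the other 9 libraries, and the 4 skeletal muscle markers found at a sum of 123.2 CPM against a liver median of 0.536. Backfat 69 had the highest hepatocyte sum of the backfat libraries, and its albumin gene, ALB, was at 44.6 CPM of all counts against between 0.155 and 0.479 in the other 4. Each result below is given with and without these libraries where they moved it by over 1.5 times, and their part in the results was not tested.

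The 8 genes split evenly between the tissues. Higher in liver were both hormone receptors, INSR and GCGR, the docking protein IRS1 and the pseudokinase TRIB3. Higher in backfat were IRS2, PIK3R1, AKT2 and TBC1D4. All 8 passed edgeR's quasi-likelihood test at an adjusted p of at most 0.05, a threshold that 55% of all genes tested passed, with 28% higher in backfat and 27% higher in liver. The median of the absolute log2 fold change was 1.34 over the 8 genes and 0.81 over all genes tested. At a log2 fold change of at least 2 as well, the threshold of the study for a differentially expressed gene, only GCGR was called (22.3% of all genes were, 11.2% higher in liver). For 6 of the 8 the libraries of the tissues did not overlap, as for 42.6% of all genes. The split depends on the scaling between libraries. Library size alone was also used in place of TMM (trimmed mean of M-values, a scaling that allows for a few very abundant genes). The median of all genes then moved by 0.71 towards backfat. Of the 8 genes, 4 then passed as higher in backfat and 1, GCGR, as higher in liver, where 64.8% of all genes passed in either direction. Relative to that shift, all 8 kept their direction, with log2 fold changes of −1.43 for INSR, −0.99 for IRS1 and −1.26 for TRIB3. The median of all genes with TMM was already near 0 (1e-04), so taking off the shift nearly repeats the TMM scaling. It cannot tell which scaling is right.

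**Figure D1:**
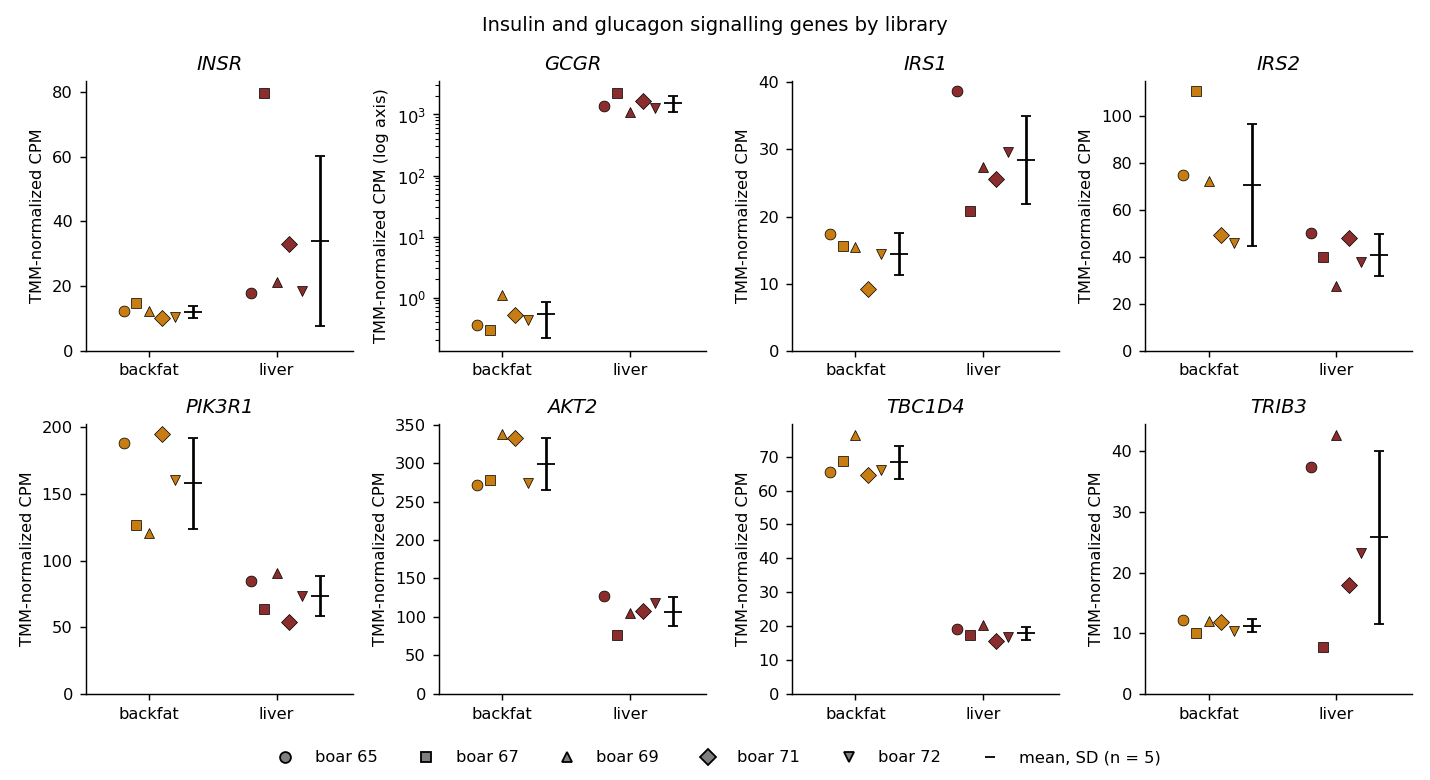
Levels of the 8 genes in each library as TMM-normalized CPM, on linear axes from 0 except for GCGR, which is on a log axis. Each symbol is 1 boar and the bar is the mean with the SD (n = 5). The tissues overlap only for IRS2 and TRIB3, and liver 67 (79.8 CPM) lies far above the other liver libraries for INSR.

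Of the receptors, INSR (ENSSSCG00000013566) lies on chromosome 2 from 71797209 to 71939923. In backfat its level was 12.4 CPM in boar 65, 14.7 in 67, 12.4 in 69, 10.1 in 71 and 10.3 in 72, all CPM being TMM-normalized from here on. In liver it was 17.7, 79.8, 21.2, 32.9 and 18.4 CPM in the same order of boars. Every liver library was above every backfat library, and liver 67 was far above the next. INSR averaged 12 ± 1.87 CPM in backfat and 34.02 ± 26.3 in liver (SD, n = 5 each), a log2 fold change of backfat over liver of −1.50 (SE 0.39, adjusted p = 0.00561 by edgeR). Without liver 67 it was −0.95 (adjusted p = 0.00241), and the coefficient of variation in liver went from 77.4% to 31.3%. Liver 67 is the library with the lowest hepatocyte sum and the highest mitochondrial share, and the part of these in its INSR level was not tested.

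GCGR (ENSSSCG00000034891; chromosome 12, 1149589 to 1157234) was the gene that differed most. The interval is that of RefSeq, with 6467 bases of exon. The count table gives GCGR 9581 bases of exon, more than that interval spans, so the counted gene model reaches outside it. How many reads came from there was not tested. In liver the level of GCGR was 1398 CPM in boar 65, 2225 in 67, 1079 in 69, 1683 in 71 and 1301 in 72. In backfat it was 0.350, 0.290, 1.09, 0.523 and 0.429 CPM in the same order, from between 19 and 65 counts per library. No backfat library came near the liver range, and backfat 69 was the highest of the fat libraries. The means were 0.537 ± 0.323 and 1537 ± 441.5 CPM (SD, n = 5), a 2865-fold difference. The log2 fold change was −11.48 (SE 0.56, adjusted p = 1.26e-08 by edgeR), and −11.91 without backfat 69, the library with the highest hepatocyte sum of its tissue. How much of the GCGR count of backfat came from hepatocyte RNA was not tested. The glucagon receptor was thus the most liver-weighted of the 8 genes by far, while the insulin receptor differed 2.83-fold between the means.

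Of the docking proteins, IRS1 (ENSSSCG00000025729; chromosome 15, 128245846 to 128307321) was higher in liver. Its level was 17.4 CPM in backfat of boar 65, 15.5 in 67, 15.4 in 69, 9.17 in 71 and 14.4 in 72. In liver of the same boars it was 38.7, 20.8, 27.4, 25.6 and 29.7 CPM. The lowest liver library was above the highest backfat library, and the means of 14.4 ± 3.10 and 28.4 ± 6.62 CPM (SD, n = 5) gave a log2 fold change of −0.98 (SE 0.21, adjusted p = 0.00162).

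IRS2 (ENSSSCG00000034763; chromosome 11, 76626158 to 76654639) went the other way. Backfat held 74.7, 110.7, 72.4, 49.3 and 45.9 CPM in boars 65, 67, 69, 71 and 72, and liver 49.9, 39.9, 27.7, 47.9 and 37.6. Backfat was higher in 5 of 5 boars, but boars 71 and 72 had backfat levels below the highest liver library, so the ranges overlap. The means were 70.6 ± 25.9 and 40.6 ± 8.90 CPM (SD, n = 5), and the log2 fold change of 0.80 (SE 0.25, adjusted p = 0.0168) was the smallest in size among the 8. It ranged from 0.59 without backfat 67 to 0.93 when single libraries were left out, with adjusted p-values of up to 0.0484.

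PIK3R1, AKT2 and TBC1D4, 3 genes that act after the docking proteins in the chain, were higher in backfat (28% of all genes were) with no overlap between the tissues (42.6% of all genes). TRIB3, whose product binds AKT, was higher in liver, and AKT1 was not analysed. PIK3R1 (ENSSSCG00000016958; chromosome 16, 46434757 to 46523626), the regulatory subunit of PI3-kinase, was at 187.8, 126.9, 120.4, 195.1 and 160.3 CPM in backfat of boars 65, 67, 69, 71 and 72. In liver it was at 84.3, 63.6, 90.7, 53.7 and 73.2 CPM. The means of 158.1 ± 34.1 and 73.1 ± 15.0 CPM (SD, n = 5) differed by a log2 fold change of 1.11 (SE 0.21, adjusted p = 0.000552).

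AKT2 (ENSSSCG00000002989; chromosome 6, 48555785 to 48620472), the AKT kinase best known for the metabolic actions of insulin, was at 271.3, 278.6, 337.4, 332.5 and 273.7 CPM in backfat. In liver its level was 126.6, 76.5, 105.0, 107.5 and 118.6 CPM, with the lowest value in liver 67, without which the coefficient of variation in liver went from 17.8% to 8.78%. Backfat averaged 298.7 ± 33.3 and liver 106.8 ± 19.1 CPM (SD, n = 5), which is a log2 fold change of 1.48 (SE 0.19, adjusted p = 2.62e-05) or 2.80-fold.

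TBC1D4 (ENSSSCG00000009464; chromosome 11, 47543808 to 47760928) varied little within a tissue. Its level was 65.6, 68.7, 76.5, 64.6 and 66.1 CPM in backfat and 19.0, 17.4, 20.4, 15.5 and 16.8 CPM in liver, in the same order of boars. The coefficients of variation were 7.06% and 10.7%, and liver 67 did not stand apart. Skeletal muscle markers summed to between 13.4 and 587.8 CPM of all counts (not TMM-normalized) over the backfat libraries, highest in backfat 65. Their part in the TBC1D4 level was not tested. The means of 68.3 ± 4.82 and 17.8 ± 1.91 CPM (SD, n = 5) gave 3.83-fold more in backfat, a log2 fold change of 1.94 (SE 0.13, adjusted p = 1.62e-07) that lies just below the threshold of 2.

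TRIB3 (ENSSSCG00000039862; chromosome 17, 34808273 to 34819592) was even in backfat and uneven in liver. Backfat held 12.26, 10.02, 11.98, 11.79 and 10.33 CPM, whereas liver held 37.5, 7.67, 42.7, 18.0 and 23.2. Liver was higher in 4 of 5 boars, and in liver 67 the level was below that of every backfat library. The means were 11.3 ± 1.02 and 25.8 ± 14.3 CPM (SD, n = 5), with a log2 fold change of −1.20 (SE 0.36, adjusted p = 0.0132). Left out 1 at a time, single libraries moved it from −1.46 (without liver 67) to −0.94 (without liver 69).

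**Figure D2:**
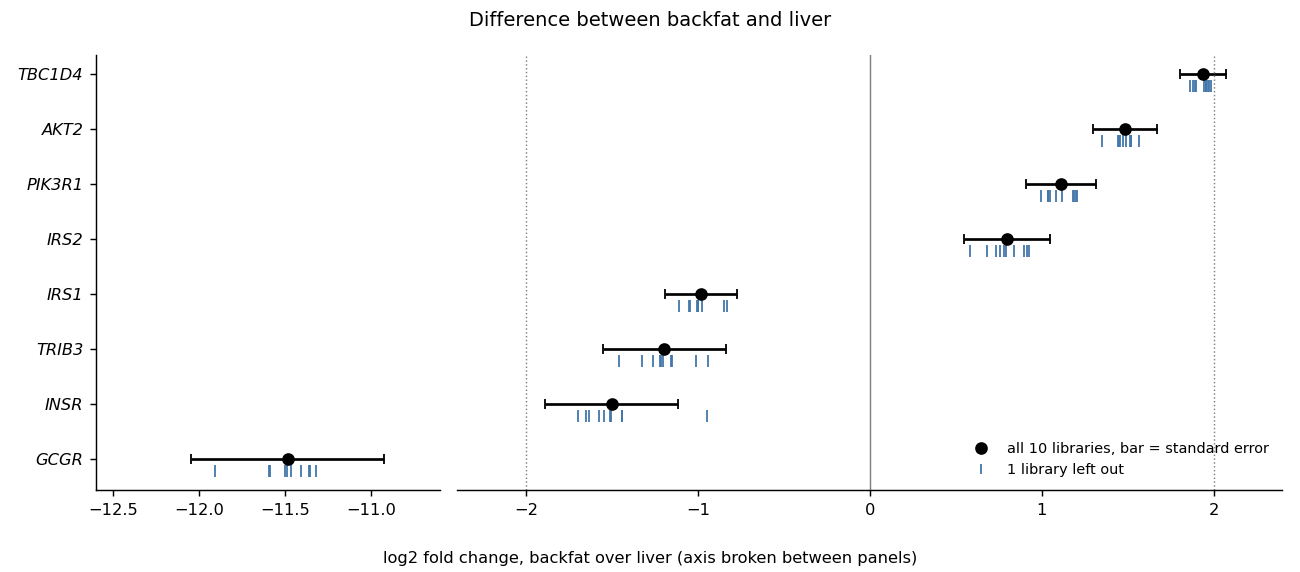
Log2 fold change of backfat over liver for the 8 genes, with the standard error as a bar and the values with 1 library left out as ticks. The axis is broken between the panels, and dotted lines mark a log2 fold change of 2 in either direction. GCGR lies alone at −11.48, and the ticks furthest from their points are INSR without liver 67 (−0.95) and GCGR without backfat 69 (−11.91).

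Within each tissue the genes were ordered by CPM per kb of exon, which allows for gene length. In backfat the median was 54.5 for AKT2, 20.3 for PIK3R1, 12.9 for IRS2, 6.97 for TBC1D4, 2.99 for TRIB3, 2.31 for IRS1, 2.20 for INSR and 0.0448 for GCGR. The ranges of the neighbours PIK3R1 and IRS2, TRIB3 and IRS1, and IRS1 and INSR overlapped. In liver GCGR came first with 145.9 CPM per kb, followed by AKT2 with 21.0, PIK3R1 with 9.26, IRS2 with 7.12, TRIB3 with 5.90, IRS1 with 4.10, INSR with 3.76 and TBC1D4 with 1.84. The ranges of every pair of neighbours from PIK3R1 down to INSR overlapped. GCGR thus moved from last in backfat to first in liver, and TBC1D4 from the middle to last. With exon lengths of RefSeq in place of those of the count table, the first and the last gene of each tissue by median stayed the same. Only the lengths were exchanged, and the counts remained those of the gene models of the count table. The last place of TBC1D4 in liver was then not clear, since its range overlapped that of INSR, which was above it in only 2 of 5 libraries. PIK3R1, whose length went from 7903 to 17018 bases, fell below IRS2 by median in both tissues, with overlapping ranges and in backfat in only 3 of 5 libraries. In liver PIK3R1 also fell just below IRS1 by median (4.30 against 4.31), and TRIB3 rose above IRS2. Both orders held in only 3 of 5 livers, and the ranges overlapped.

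A ratio of related genes within a library does not depend on the scaling between libraries. Which gene of a pair is the more abundant rests on the exon lengths of the count table, whereas the difference between tissues does not. IRS1 and IRS2 are alternative docking proteins of the insulin receptor, and the ratio of IRS1 to IRS2 per kb was 0.195 in backfat of boar 65, 0.118 in 67, 0.178 in 69, 0.156 in 71 and 0.263 in 72. In liver it was 0.649, 0.436, 0.828, 0.447 and 0.661. IRS1 was lower relative to IRS2 in each backfat than in any liver. IRS2 was above IRS1 in all 10 libraries with the lengths of the count table, and in 4 of 5 livers with those of RefSeq. The mean log2 ratio was −2.51 ± 0.43 in backfat and −0.77 ± 0.40 in liver (SD, n = 5), a difference of −1.74 or 3.34-fold.

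TBC1D1 is the paralog of TBC1D4 and did not pass the test itself, at 62.1 ± 9.34 CPM in backfat and 55.9 ± 25.6 in liver (SD, n = 5, adjusted p = 0.646 by edgeR). Its log2 fold change of 0.15 became 0.41 without liver 67 (adjusted p = 0.0806) and 0.064 without backfat 69 (adjusted p = 0.862). With library size alone TBC1D1 passed as higher in backfat (log2 fold change 0.90, adjusted p = 0.00517). The ratio of TBC1D4 to TBC1D1 lay between 0.927 and 1.16 in backfat, with a median of 1.06, and between 0.168 and 0.537 in liver, with a median of 0.304. Every backfat ratio was above every liver ratio, with a difference in log2 ratio of 1.69. The lowest ratio was in liver 67, where TBC1D1 reached 97.8 CPM, and the difference was 1.46 without it.

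PIK3R2 encodes the other p85-type subunit and was at 22.1 ± 3.24 CPM in backfat and 24.5 ± 3.92 in liver (SD, n = 5; adjusted p = 0.448 by edgeR), with a log2 fold change that turned from −0.15 to 0.56 with library size alone. The ratio of PIK3R1 to PIK3R2 was 3.69, 3.78, 2.58, 4.30 and 3.39 in backfat of boars 65, 67, 69, 71 and 72 and 1.59, 1.41, 2.14, 1.16 and 1.18 in liver, a difference in log2 ratio of 1.26. For each of the 3 ratios the tissues did not overlap, the difference had the same sign in 5 of 5 boars, and the exact permutation test gave p = 0.00794 (two-sided, adjusted p = 0.00794 over the 3), the smallest that 5 against 5 libraries can give. With the libraries of each boar taken as a pair, p was 0.0625 by exact sign-flipping, the smallest that 5 pairs allow, so the paired form could not pass 0.05.

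**Figure D3:**
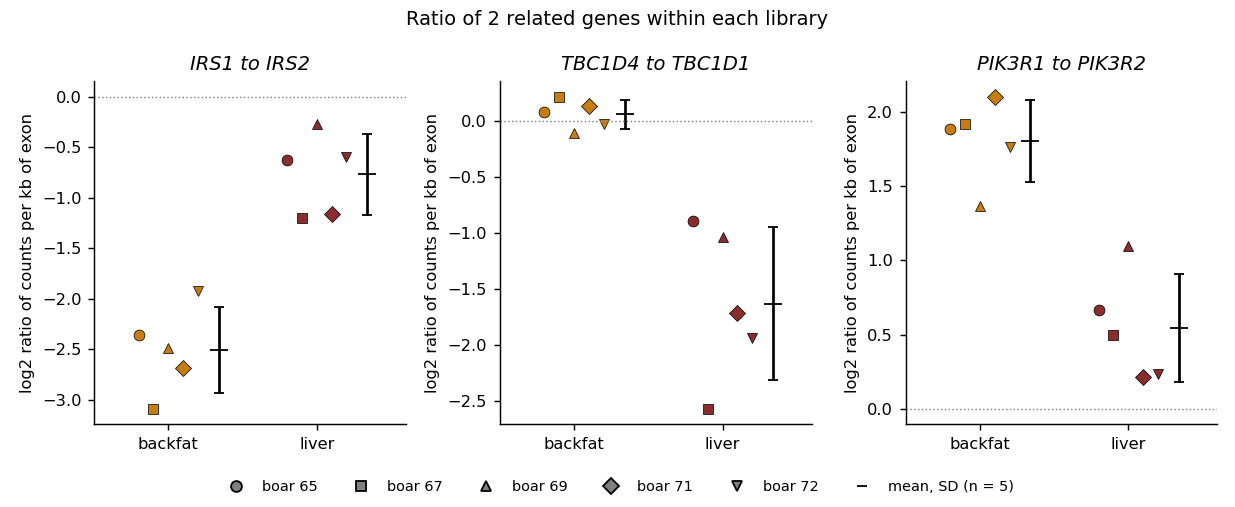
Log2 ratio of counts per kb of exon of related genes in each library, for IRS1 to IRS2, TBC1D4 to TBC1D1 and PIK3R1 to PIK3R2. Each symbol is 1 boar, the bar is the mean with the SD (n = 5), and the dotted line marks equal levels by the exon lengths of the count table. The tissues do not overlap in any panel, and the spread is widest for TBC1D4 to TBC1D1 in liver.

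Around these genes, 63 others of insulin and glucagon signalling were listed in 5 groups, of which 61 had an identifier and 59 were tested. Of the 59, 20 passed as higher in backfat, 7 as higher in liver and 32 did not pass, with a median log2 fold change of 0.24. Of all genes tested, 28% passed as higher in backfat, 27% as higher in liver and 55% in either direction, with a median of 1e-04. With library size alone, 43 passed as higher in backfat and 3 as higher in liver, where 64.8% of all genes passed in either direction. Without liver 67, 11 passed as higher in liver, where 57.7% of all genes passed in either direction. The shares of all genes by direction were not computed under either setting, so these counts are not read as a result about the listed genes.

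Of 6 related receptors and clearance genes tested, 3 were higher in backfat, 1 was higher in liver and 2 did not pass. GIPR, the receptor of the incretin GIP, was at between 5.72 and 13.5 CPM in backfat and between 0.297 and 2.13 in liver, where liver 67 was the highest. Its log2 fold change was 3.37 (SE 0.48, adjusted p = 7.5e-05), and 3.96 without liver 67. GLP2R, a receptor of the same family, went the other way at 0.520 ± 0.0786 CPM in backfat and 5.04 ± 1.32 in liver (SD, n = 5), with a log2 fold change of −3.27 (SE 0.29, adjusted p = 1.09e-06). The receptors of the glucagon family that were tested, GCGR, GLP2R and GIPR, were therefore not higher in 1 tissue as a group. GLP1R had too few counts to be tested.

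Of 15 docking proteins and receptor-level inhibitors tested, 4 were higher in backfat, 3 in liver and 8 did not pass. GRB14, an adaptor that inhibits the insulin receptor kinase, had the lowest log2 fold change of the group, −2.75 (SE 0.23, adjusted p = 7.03e-07), at between 5.23 and 7.67 CPM in backfat and between 28.9 and 65.2 in liver. INSR and its inhibitor GRB14 were thus both higher in liver. GRB10, in the same group, passed the other way, as higher in backfat (log2 fold change 0.90, SE 0.29, adjusted p = 0.0185). The suppressors SOCS1 and SOCS3 and the phosphatase PTPN1 did not pass.

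Of 9 genes of PI3-kinase and phosphoinositide enzymes tested, 3 were higher in backfat and 6 did not pass. The catalytic subunit PIK3CA was at 23.6 ± 7.55 CPM in backfat and 15.0 ± 1.12 in liver (SD, n = 5), a log2 fold change of 0.65 (SE 0.20, adjusted p = 0.0143). The regulatory subunit PIK3R3 was at between 13.9 and 19.7 CPM in backfat and, in liver, at 10.5 CPM in boar 67 and between 2.70 and 3.29 in the other 4. Its log2 fold change was 1.95 (SE 0.37, adjusted p = 0.000681), and 2.50 without liver 67.

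Of 19 genes of the AKT family, its regulators and targets, 5 were higher in backfat, 2 were higher in liver and 12 did not pass. GSK3B, a kinase that AKT inhibits and that restrains glycogen synthesis, had the lowest value of the group, −0.50 (SE 0.16, adjusted p = 0.0176), which turned to 0.20 with library size alone. Its tissues overlapped, since liver 67 with 33.7 CPM was within the backfat range, and it no longer passed without backfat 72 (−0.45, adjusted p = 0.0507), without liver 65 (−0.43, adjusted p = 0.0526) or with no filter on low counts (−0.45, adjusted p = 0.0625). The relatives of TRIB3 in the list, TRIB1 and TRIB2, did not pass.

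Of 10 genes of the cyclic AMP arm of glucagon signalling tested, 5 were higher in backfat, 1 was higher in liver and 4 did not pass. PRKAR2B, the regulatory subunit of protein kinase A that is prominent in fat, was at between 143.6 and 382.1 CPM in backfat and between 15.2 and 29.6 in liver (log2 fold change 3.34, SE 0.30, adjusted p = 1.34e-06). PPARGC1A, a coactivator that glucagon induces in liver, was at between 0.259 and 0.609 CPM in backfat and between 13.4 and 32.7 in liver (log2 fold change −5.47, SE 0.36, adjusted p = 1.02e-07). Of the genes tested in this arm, PPARGC1A alone passed in the direction of GCGR.

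**Figure D4:**
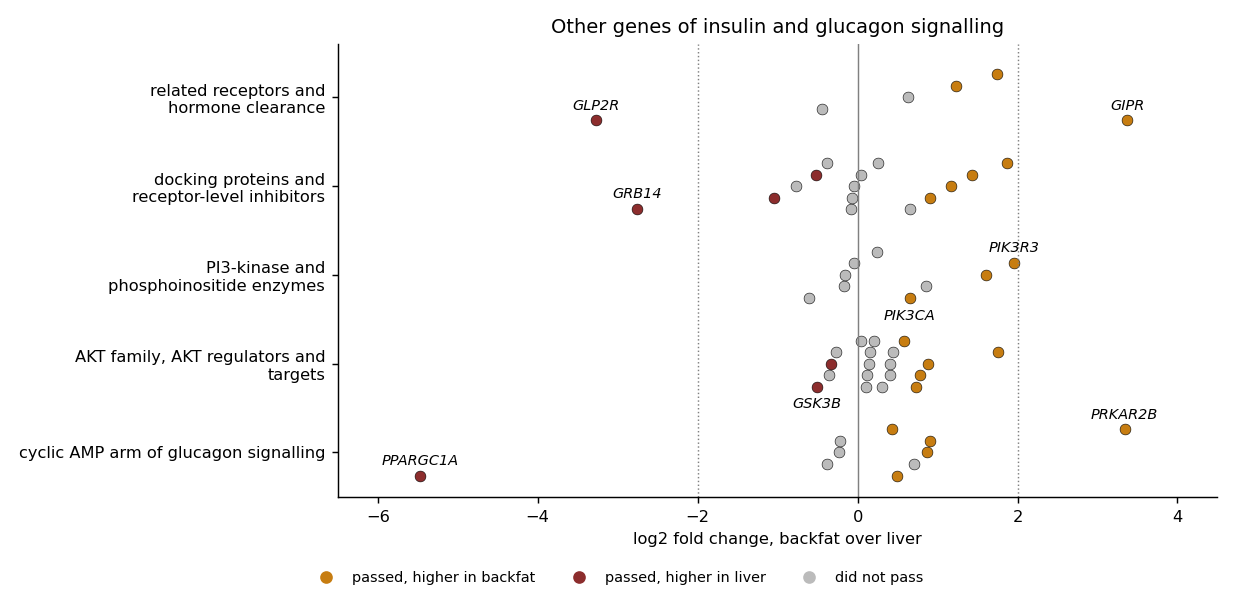
Log2 fold change of backfat over liver for the 59 other genes of insulin and glucagon signalling tested, 1 point per gene in 5 groups and spread vertically only for legibility. Colours mark genes that passed the test in each direction (20 and 7) or did not pass (32), dotted lines mark a log2 fold change of 2 in either direction, and genes with values in the text that had the lowest or highest value among those that passed in a group are named.

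For each of the 8 genes, the nearest profiles among all genes tested with a symbol were found by the root mean square difference of centred log2(CPM + 0.5) over the 10 libraries, a measure that takes in the tissue difference and single libraries alike. For INSR they were NCF4 at 0.16 and FBXW7 at 0.19, for IRS1 PAQR3 at 0.14 and C1QC at 0.18, and for IRS2 FOXO4 and RRAGD, both at 0.17. NCF4 shared the high value of liver 67, with 25.2 ± 17.5 CPM in liver and 9.53 ± 1.11 in backfat (SD, n = 5). For GCGR the nearest were TAT at 0.369 and HPD at 0.375, enzymes of tyrosine breakdown. In backfat GCGR, TAT and HPD averaged 0.537, 0.0574 and 0.320 CPM, near or below the offset of 0.5, so these distances depend on the offset. The log2 fold change was −13.41 for TAT and −11.48 for GCGR. For PIK3R1 the nearest were SOX13 and CAD at 0.15 and 0.17, for AKT2 TMEM164 and TSPAN13 at 0.15 and 0.17, for TBC1D4 PPT1 and RAP2A at 0.12 and 0.13, and for TRIB3 PTPRD and SRPRA at 0.21 and 0.23. GCGR and TRIB3 had the most distant neighbours and TBC1D4 the closest.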

How the data were processed

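RNA-seq was performed by the authors on bulk backfat and liver of 5 boars. Reads were checked with FastQC, trimmed with Trimmomatic and aligned to Sscrofa11.1 with HISAT2, and the authors counted read pairs per gene with featureCounts 2.0.1 on the exons of Ensembl release 99, per the file headers without strand and without multi-mapping or multiply assigned reads. Reads of antisense genes therefore cannot be told apart, and reads shared between overlapping genes are not counted. The deposited values are raw counts. The deposited tables of cytosine calls by read position carry no gene and were not used.

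The table was fitted with edgeR 4.0.16 (R 4.3.3) after filterByExpr by tissue and TMM normalization, whose factors were 1.18 to 1.44 for backfat and 0.649 to 0.916 for liver. Tissue was the single term of glmQLFit and glmQLFTest, with Benjamini-Hochberg adjustment over 16275 genes. All adjusted p-values are from this test unless another is named. Positive log2 fold changes are higher in backfat. Each SE is the log2 fold change over the root of its F statistic. Symbols were matched through the gene name table, which gave 12740 of the tested genes a symbol. AKT1 and 2 of the pathway genes had no identifier there, so a planned ratio of AKT1 to AKT2 was not computed, and GLP1R and IRS4 did not pass the filter. Lengths were those of the count table, and positions and sequences those of RefSeq. Paralog ratios were tested by exact permutation of the libraries (SciPy 1.17.1).

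Libraries of a boar were paired by the animal number of the column names. The replicate numbers of the labels could not be matched to these. Deviations from the tissue means correlated between libraries of the same boar at r between 0.036 and 0.226 over genes, and for boars 67 (0.095 against 0.106) and 69 (0.036 against 0.152) a library of another boar correlated more, so the pairing rests on the column names. The 5 libraries of a tissue come from 5 boars.

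The genes named are the 9 listed, in each pathway group the lowest and highest log2 fold change among genes that passed, the paralogs of the ratios, and the 2 nearest profiles of each gene. GRB10, SOCS1, SOCS3, PTPN1, TRIB1 and TRIB2 were named after their values were seen. A few genes to which the rule leads are left out. The genes and lists were chosen with earlier results of these data known. Alternatives were DESeq2 1.42.0 and its size factors, limma 3.58.1 (voom), library size alone, mitochondrial genes removed, other filters, the boar as a block and leaving out each library. Leaving out liver 67 and backfat 69 together was chosen after seeing the data. The fit was tested on counts simulated at the TMM scaling, with equal numbers of genes raised and lowered. That simulation cannot tell which scaling between libraries is right.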

Additional observations from a re-analysis of the deposited data

Results flagged for a closer look

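Of 22 groups of 5 libraries (the 8 genes and the 3 ratios in each tissue), 2 held a library far from the other 4, by a gap to its nearest neighbour of over 0.71 of the whole range, and chance sets apart about 1 in 20 such groups. INSR in liver 67 was at 79.8 CPM, against between 17.7 and 32.9 in the other livers, a gap of 0.755 of the range. GCGR in backfat 69 was at 1.09 CPM, against between 0.290 and 0.523 in the other backfat libraries, a gap of 0.710. Liver 67 also had the lowest hepatocyte sum of the livers and backfat 69 the highest of the backfat libraries, and their part in these values was not tested.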

How the results depend on the processing

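Of 549 results under an alternative, 531 kept their direction and their side of the threshold or stayed within 1.5 times the main count. With library size alone, which moved the median of all genes by 0.71, the log2 fold change was −0.72 for INSR (adjusted p = 0.0958), −0.28 for IRS1 (0.371) and −0.55 for TRIB3 (0.249). Under that scaling 2 of the 8 genes were called differentially expressed as higher in backfat and 1 passed as higher in liver. Of the other pathway genes, 43 passed as higher in backfat and 3 as higher in liver. Of all genes, 64.8% passed in either direction, and neither the shares by direction nor the share called differentially expressed was computed. GSK3B turned to 0.20 (0.428) and PIK3R2 to 0.56 (0.0248). The number of other pathway genes higher in liver was between 5 and 11 when single libraries were left out, and 11 without liver 67 and backfat 69 together. Of all genes, between 50.6% and 57.7% and 57.1% passed in either direction in those fits. With the replicate block, the 3 ratios kept their differences of −1.74, 1.69 and 1.26 at p = 0.0625 (exact sign-flip), and the edgeR fit with the boar as a block changed no call of the 8 genes. Counts of between 19 and 65 for GCGR in backfat limit the precision of its fold change.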
